A study of Bos taurus with 24 samples.

Results

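Metallothioneins are small, cysteine-rich proteins that bind zinc and copper. Their genes are switched on through the zinc-sensing factor MTF1 and by glucocorticoids, and they are also known to respond to oxidative stress. The largest ovarian follicle of a heifer holds steroid-making granulosa and theca cells, a blood supply in its wall and often immune cells. Total RNA from 16 such follicles, 1 from each of 16 heifers and 8 to 12 mm in diameter, had been hybridised in pairs to 24 two-colour arrays. Each follicle was on 3 arrays, and no 2 arrays carried the same pair. The labels give each follicle an identifier, and no treatment, stage, breed, age or dominance status. No control group exists, and the series title names follicle selection as the subject.

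The follicles were selected on measured values: all 16 were ranked by the mean level of MT1A and MT2A. The 5 highest (861, 46, 31, 27 and C32) are called MT-high and the 5 lowest (33, J980, C12, C35 and C10) MT-low, so 10 of 16 follicles entered the contrast and the 6 others (26, C22, H893, 8, C26 and C13) are called middle. A level is the log2 abundance of a gene in a follicle relative to the mean of the 16, estimated from its 3 arrays. A difference is the mean level of the 5 MT-high minus that of the 5 MT-low follicles. All units are log2 on the assumption that the deposited ratios are log2 of Cy5 over Cy3, a direction that is likely from the labels and not stated. If every sign turned, the 2 groups would trade places, and whether a gene was higher or lower where the metallothioneins were higher would stay the same. In such RNA, fewer cells of a type and less RNA per cell cannot be told apart. Ratios between follicles also do not show whether a marker was present at all.

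The metallothionein levels that chose the groups are a description and were not tested. MT1A had levels of 1.83, 1.01, 0.91, 0.68 and 0.63 in follicles 861, 46, 31, 27 and C32, and of -0.70, -0.73, -0.80, -1.03 and -1.10 in 33, J980, C12, C35 and C10. MT2A followed it, with levels of 1.63, 1.01, 0.74, 0.71 and 0.57 in the MT-high and -0.58, -0.64, -0.69, -0.96 and -1.09 in the MT-low follicles. The means of the 2 groups differed by 1.89 for MT1A, or 3.70-fold, and by 1.72 for MT2A, or 3.30-fold. Follicle 861 stood at the top for both. The mean of both genes was 1.73 in follicle 861 and 1.01 in the next, 46. At the upper edge of the middle it was 0.60 in C32, just inside, and 0.19 in follicle 26, just outside. At the lower edge it was -0.64 in follicle 33 and -0.48 in C13.

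MT3, another family member, did not enter the ranking. Its levels were 1.13, 1.28, 0.39, 0.81 and 0.57 in the MT-high follicles and -0.82, -0.13, -0.58, -0.97 and -0.81 in the MT-low, a difference of 1.502 or 2.83-fold. The groups did not overlap for MT3, and J980 was the MT-low follicle nearest to the others. Over the 16 follicles, MT1A and MT2A levels had a Pearson r of 0.996, MT1A and MT3 of 0.926, and MT2A and MT3 of 0.933. These levels share arrays, and each gene was read by 1 feature. Whether the features also bind each other's transcripts was not tested.

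**Figure D1:**
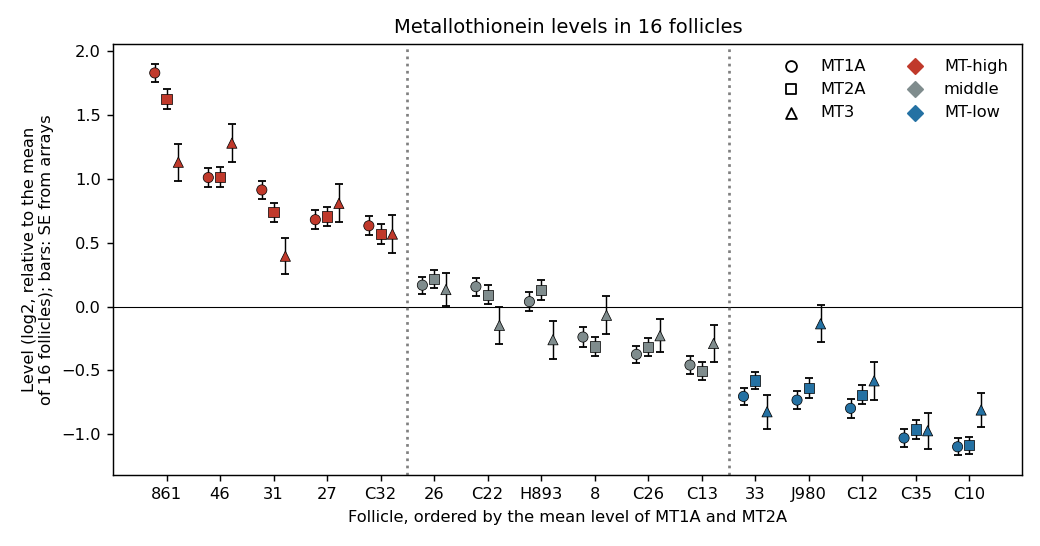
Levels of MT1A (circles), MT2A (squares) and MT3 (triangles) in each of 16 follicles, in log2 relative to the mean of all, ordered by the mean of MT1A and MT2A. Bars are the SE from array error. Follicle 861 has the highest MT1A level at 1.83 and C10 the lowest at -1.10, and follicle 861 stands apart from the next, 46 at 1.01.

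The same contrast could be read directly on the 5 arrays that carried 1 MT-high and 1 MT-low follicle. These arrays also entered the levels that ranked the follicles, so their direction for MT1A follows largely from the selection and is a description. Neither C32 nor 33 was on any of them. MT1A was higher in the MT-high follicle by 1.79 (27 over C35), 2.91 (861 over C10), 1.92 (46 over C12), 1.93 (31 over C10) and 1.42 (27 over J980). The array of 2 MT-high follicles, 27 and C32, gave 0.03, and that of 2 MT-low follicles, 33 and C12, gave 0.06. The other array within the MT-high group gave -0.94 for 46 over 861.

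The metallothioneins were among the most variable genes between these follicles. The SD of the 16 levels was 0.84 for MT1A, which placed it at rank 28 of 9031 genes, 0.77 for MT2A at rank 43 and 0.68 for MT3 at rank 65. The median SD of all genes was 0.169. The residual SD of single arrays around the fit was 0.10 for both MT1A and MT2A and 0.19 for MT3.

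Outside this family, no gene followed the metallothioneins closely. Among 9028 other genes, 17 had an absolute Pearson r above 0.7 with the mean of MT1A and MT2A over the 16 follicles, 1 above 0.8 and 0 above 0.9. The median absolute r was 0.187. After averaging of features by symbol, the most alike gene was TRAPPC1, a subunit of a vesicle-tethering complex, with r of 0.759. In the opposite sense it was ABHD13, a hydrolase family member, with r of -0.854. The median SE of an ABHD13 level, 0.32, exceeded the SD of its levels, 0.21. Single features of PNPLA6 and ADCK1 reached an r of 0.811 and 0.763. These r are descriptions over follicles that also set the groups. A single array feature with no gene symbol here came closer, with r of 0.941. Its levels were 0.73, 0.34, 0.21, 0.14 and 0.24 in the MT-high follicles and -0.21, -0.23, -0.15, -0.28 and -0.22 in the MT-low, so the groups did not overlap.

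**Figure D2:**
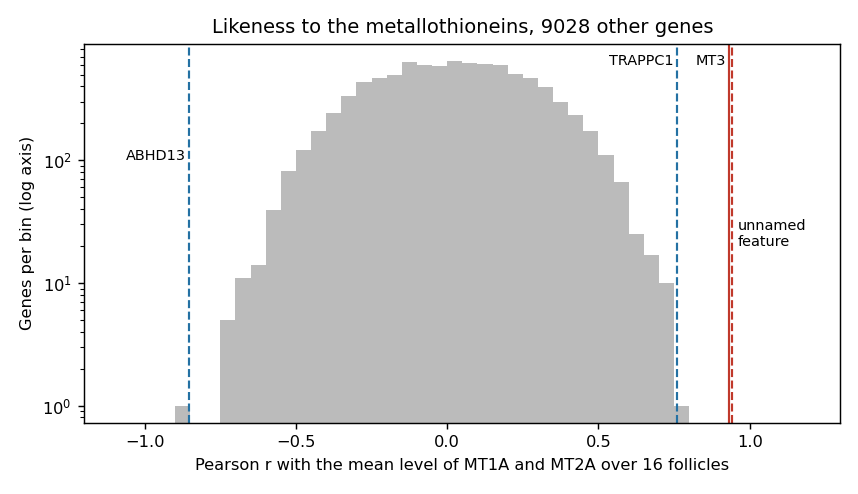
Histogram of the Pearson r of each of 9028 genes with the mean level of MT1A and MT2A over 16 follicles, with a log axis for the number of genes. Lines mark ABHD13 at -0.854, TRAPPC1 at 0.759, MT3 at 0.930 and the unnamed feature at 0.941, which stand outside the bulk of genes.

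Before the gene contrast, 1 follicle needs naming. J980, an MT-low follicle, had the lowest level of all 16 for 1385 of 9028 genes (15.3%) and the highest for 1224 (13.6%). It also had the lowest mean of 10 of the 23 gene lists used below. Calls by array error were therefore also made without it. The groups did not differ detectably in the array properties tested. Missing values per array averaged 734.6 ± 125 (SD, n = 5) over the arrays of MT-high and 712.5 ± 152 (SD, n = 5) over those of MT-low follicles (exact permutation test, two-sided, p = 0.794; the smallest p this design allows is 0.0079). The SD of array values averaged 0.395 against 0.409, with p = 0.706 in the exact permutation test. Identifiers that start with C belonged to 1 of 5 MT-high and 3 of 5 MT-low follicles, and what the letter marks is not given.

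No gene separated the groups once the spread between follicles was taken as the error. In limma's test on the 16 follicle levels, with Benjamini-Hochberg adjustment over 9028 genes, 0 genes were higher (0%) and 0 were lower (0%) in MT-high follicles at an adjusted p under 0.05. The smallest adjusted p was 0.9995. Without adjustment, 218 genes were higher (2.41%) and 131 were lower (1.45%) at p under 0.05. Together these shares are no larger than that threshold gives on average where nothing differs. The replicate here is the animal, 5 against 5.

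That count sets a limit on size rather than showing that the groups were alike. The median SE of a gene's difference was 0.106, and the median half-width of its 95% interval was 0.224. For 8851 genes, or 98.0%, the interval lay within -1 and 1, and for 7348 genes, or 81.4%, within -0.5 and 0.5. Outside the metallothioneins, a shift as large as that of MT1A thus lay beyond the interval of most genes. The median difference over all genes was 0.0065, with 4741 of them above 0.

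A narrower question is whether these particular RNA samples differed beyond the error of the arrays. That test takes the residual of the array fit as its error, so its p-values speak of the 10 follicles and not of other animals. It called 175 genes higher (1.94%) and 81 lower (0.897%) in MT-high follicles at a limma adjusted p under 0.05. Of the 175, 121 had their lowest level in J980, and of the 81, 25 had their highest level there. Without J980 and its arrays it called 118 of 8990 genes higher (1.31%) and 105 lower (1.17%), of which 70 and 48 were also called with all 16 follicles. Of the 256 genes called with all follicles, 117 had an unadjusted p under 0.05 against the spread between follicles. Leaving out single follicles or arrays moved these counts between 52 and 260 higher and between 21 and 111 lower. "Array error" below refers to this test.

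**Figure D3:**
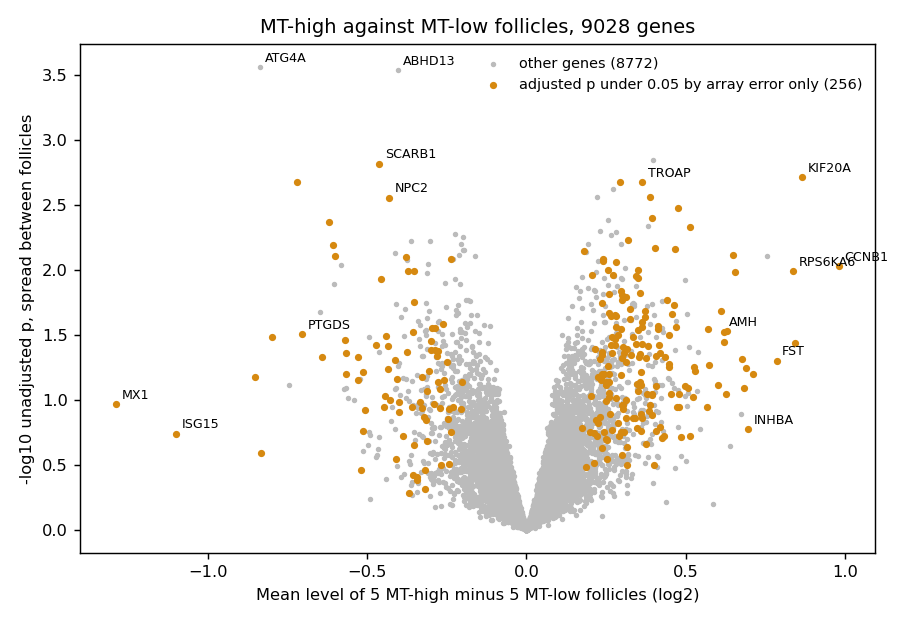
Difference of each of 9028 genes between 5 MT-high and 5 MT-low follicles (log2, horizontal axis) against -log10 of the unadjusted p from the spread between follicles (vertical axis). Orange points are the 256 genes with an adjusted p under 0.05 by array error, and many of them, such as MX1 and ISG15, lie low because their levels scatter within the groups.

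In 28 genes all 5 MT-high levels lay above all 5 MT-low levels (0.31%), and in 21 genes all lay below (0.233%). Of the 252 ways to split 10 follicles 5 and 5, 1 gives such a separation in each direction. These shares are thus no larger than an arbitrary split gives on average, and the lack of overlap only describes these genes. None of them passed the limma test after adjustment. Array error called 10 of these 49, beside 1.94% of all genes higher and 0.897% lower. Choosing genes by separated levels favours such calls. The 12 of smallest p in each direction are described here. Of these 24, array error called 9 with all follicles and 4 without J980, and 3 (TROAP, NPHP4 and CALM3) were called both times. Without J980, 1.31% of all genes were called higher and 1.17% lower. On the higher side they were TROAP, SUGT1, LOC512464, NPHP4, CALM3, IFT20, GNB2, TTK, FASTK, THOC6, RPS6KA6 and SLC38A10.

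RPS6KA6, a ribosomal S6 kinase family member, had the largest difference of these 12. Its levels were 0.48, 0.47, 0.48, 0.16 and 0.10 in the MT-high and -0.12, -1.12, -0.02, -0.49 and -0.76 in the MT-low follicles. The difference was 0.84 (SE 0.288, 95% interval 0.23 to 1.45; limma adjusted p = 0.9995), and 0.62 without J980. The lowest MT-high follicle was C32 and the highest MT-low follicle C12, and the middle follicles ranged from -0.62 to 0.96, wider than either group.

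TROAP and TTK both act in mitosis, TROAP at the spindle and TTK as a kinase of the spindle checkpoint. TROAP levels were -0.02, 0.19, 0.35, 0.12 and 0.08 in the MT-high and -0.13, -0.40, -0.06, -0.21 and -0.30 in the MT-low follicles. Its difference was 0.36 (SE 0.099; limma adjusted p = 0.9995), and its 3 features agreed little, with a median r of 0.121. TTK levels were 0.11, 0.12, 0.20, 0.30 and 0.17 against -0.08, -0.35, 0.09, 0.00 and -0.37, a difference of 0.32. Both were above 0 on all 5 arrays that carried 1 follicle of each group. Those arrays also entered the levels by which these genes were chosen, so this adds no separate support.

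CALM3 encodes the calcium sensor calmodulin. Its levels were 0.21, 0.09, 0.39, 0.08 and 0.06 in the MT-high and -0.08, -0.58, -0.06, -0.10 and -0.34 in the MT-low follicles, a difference of 0.40. NPHP4 and IFT20, both genes of the primary cilium, differed by 0.39 and 0.26. The 2 features of each agreed little, with an r of 0.052 and 0.080. SUGT1, a co-chaperone of HSP90, differed by 0.29. The G protein subunit gene GNB2 differed by 0.38, with 0.65 in follicle 861 and 0.08 to 0.14 in the other 4 MT-high follicles. FASTK, THOC6, LOC512464 and SLC38A10 differed by 0.18, 0.19, 0.27 and 0.30. The 6 features of FASTK also agreed little, with a median r of 0.087.

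On the lower side, ATG4A, a protease that processes the autophagy protein ATG8, had the smallest unadjusted p of all genes. Its levels were -0.06, -0.77, -0.31, -0.53 and -0.21 in the MT-high and 0.75, 0.21, 0.54, 0.10 and 0.71 in the MT-low follicles. The difference was -0.84 (SE 0.18, 95% interval -1.22 to -0.46; limma adjusted p = 0.9995). It was not called by array error (limma adjusted p = 0.209), and its array SE of 0.29 exceeded the SE from the spread between follicles. Of the 5 direct arrays, 3 gave a value, all below 0.

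ABHD13 levels were -0.44, -0.32, -0.13, 0.04 and -0.15 in the MT-high and 0.25, 0.16, 0.09, 0.22 and 0.31 in the MT-low follicles, a difference of -0.40. Follicle 27 with 0.04 and C12 with 0.09 were the nearest. NPC2, which moves cholesterol out of lysosomes, had -0.36, -0.45, 0.04, -0.04 and -0.10 against 0.15, 0.31, 0.07, 0.29 and 0.41. Its difference was -0.43 (SE 0.122), and array error gave a limma adjusted p of 0.0127 with all follicles and 0.0519 without J980.

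SESN3, a sestrin of the oxidative stress and nutrient response, differed by -0.60, and by -0.45 without J980, whose level of 0.91 was its highest. MED7, a Mediator subunit, and NFIA, a transcription factor, differed by -0.46 and -0.41. The remaining genes on this side were ELK4, TBC1D2B, TM4SF18, DDX59, TSPAN31 and SLC5A6, with differences from -0.16 in TSPAN31 to -0.30 in TBC1D2B. The 2 features of DDX59 disagreed, with an r of -0.089. ELK4 was the exception on the direct arrays, where 3 of 5 gave values above 0 (0.06, 0.09 and 0.01), and array error gave it a limma adjusted p of 0.545. SLC5A6, a vitamin transporter, was the only one of the 12 lower genes to lie closer to 0 by over 1.5 times without J980, at -0.14 against -0.23.

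**Figure D4:**
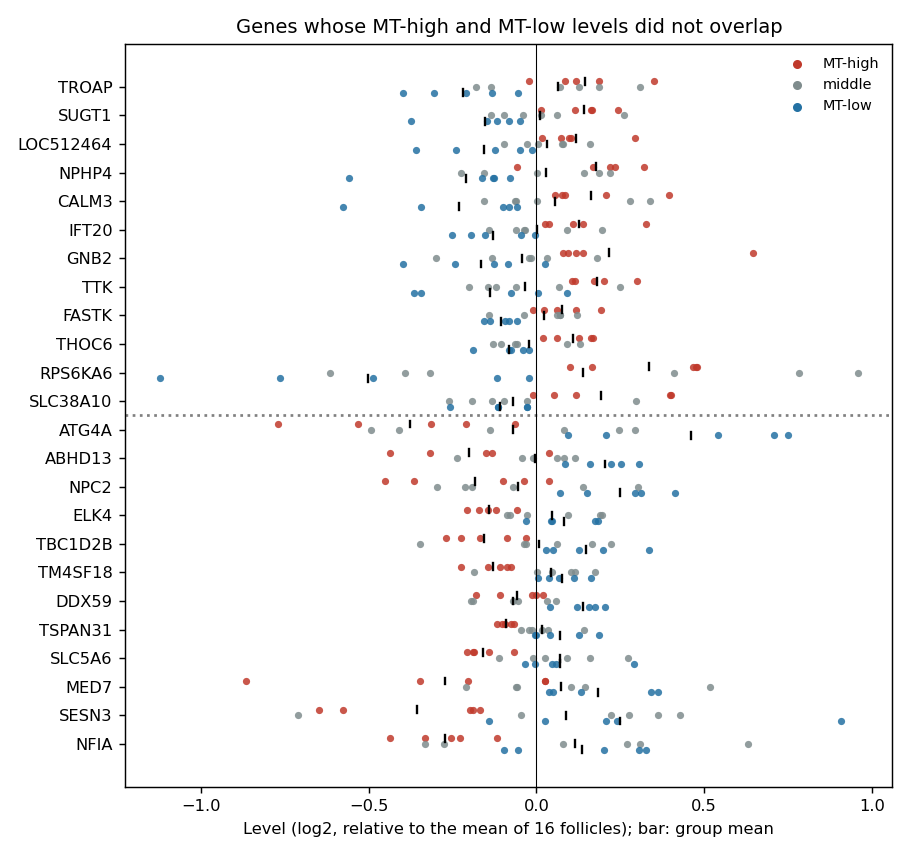
Levels in log2 of 24 genes, 12 higher (above the dotted line) and 12 lower in MT-high follicles, with 1 point for each follicle and a bar at each group mean. MT-high and MT-low points do not overlap in any of them, which is how they were chosen. Middle follicles (grey) spread across both, as in RPS6KA6 from -0.62 to 0.96.

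Genes that regulate metallothioneins or handle the same metals did not pass the test. MTF1, the factor that senses zinc, had levels of -0.07, 0.03, -0.04, -0.05 and -0.14 in the MT-high and 0.20, 0.04, 0.07, -0.10 and -0.07 in the MT-low follicles. Its difference was -0.08 with a 95% interval of -0.25 to 0.09, and the groups overlapped. Of 41 genes of zinc, copper and iron handling, 24 were measured, with a median difference of 0.0067 beside 0.0065 for all genes. None passed the limma test and 13 were above 0. Array error called 1 lower, SLC40A1, the iron exporter ferroportin, beside 0.897% of all genes. SLC40A1 levels were -0.37, -0.45, -0.38, -0.32 and 0.23 in the MT-high and 0.37, 0.72, -0.29, -0.04 and 0.17 in the MT-low follicles. Its difference was -0.44 (SE 0.188; limma adjusted p = 0.9995), with C32 apart from the other MT-high follicles, and -0.31 without J980. ATOX1, a copper chaperone named after its values were seen, differed by 0.38, and by 0.74 without J980, with an array-error limma adjusted p of 0.442 and 0.0510. The other 22 differences lay within 0.2 of 0.

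Of 26 glucocorticoid-induced genes, 15 were measured, with a median difference of 0.0128 and 0 called by array error. The member of smallest p was PDK4, a kinase that restrains pyruvate use, with a difference of -0.23, and of -0.13 without J980. Of 44 antioxidant and glutathione genes, 40 were measured, with a median of 0.0164, or -0.0511 without J980. Array error called TXNRD1, a thioredoxin reductase, at 0.26, GPX1, a glutathione peroxidase, at 0.34, and PRDX1, a peroxiredoxin, at 0.35. These 3 of 40 stand beside 1.94% of all genes called higher, or 1.31% without J980. Without J980 only GPX1 was called, at a limma adjusted p of 0.0499, and PRDX1 was at 0.16. Members on the other side, named after their values were seen, were PRDX2, another peroxiredoxin, at -0.46 (-0.12 without J980), and GSTT1, a glutathione transferase, at -0.31 (-0.20 without J980). Neither was called by array error. The 28 of 32 measured hypoxia and glycolysis genes had a median of 0.0563, and of -0.0381 without J980. Both genes called by array error, the glycolytic enzyme genes PKM at 0.36 and TPI1 at 0.50, lost the call without J980, where they were at 0.13 and 0.27. These 2 of 28 higher calls stood beside 1.94% of all genes. PKM stood at -0.97 in J980 and between -0.10 and 0.14 in the other MT-low follicles.

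Cell cycle genes had the highest list median. Of 48, 37 were measured, with a median difference of 0.144 and 28 above 0, and 0.116 without J980. None passed the limma test. Above 0 were 75.7% of the list and 52.5% of all genes. Array error called 10 higher and 0 lower, beside 1.94% and 0.897% of all genes. Without J980 it called 6 and 0, beside 1.31% and 1.17%, and these 6 were among the 10. The mean of the list ran from -0.0305 to 0.271 in MT-high and from -0.468 (J980) to 0.0714 in MT-low follicles.

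CCNB1, the cyclin that drives entry into mitosis, had levels of 0.33, 0.55, 0.99, 0.18 and -0.11 in the MT-high and -0.34, -1.35, 0.20, -0.71 and -0.78 in the MT-low follicles. C32 among the MT-high and C12 among the MT-low made the groups overlap. The difference was 0.98 (SE 0.332, 95% interval 0.28 to 1.69; limma adjusted p = 0.9995), and 0.78 without J980. It was above 0 on all 5 direct arrays, from 0.52 (46 over C12) to 1.69 (27 over J980), but none of them carried C32.

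KIF20A, a mitotic kinesin outside the list that was named after its values were seen, had 0.43, 0.54, 0.95, 0.13 and -0.22 against -0.43, -0.77, -0.16, -0.58 and -0.55. Its groups overlapped through C32 alone, and its difference was 0.87 (SE 0.233), or 0.82 without J980. All 5 direct arrays lay between 0.79 and 1.25, but none of them carried C32. Other members called by array error, also named after their values were seen, were BIRC5 at 0.69, H2AZ1 at 0.53, PLK1 at 0.51, UBE2C at 0.45, HMGB2 at 0.42, BUB1B at 0.42, CCNA2 at 0.41, STMN1 at 0.39 and AURKB at 0.26. Without J980, BIRC5 was at 0.40, H2AZ1 at 0.31, UBE2C at 0.32, CCNA2 at 0.32 and AURKB at 0.22, all still called. PLK1 at 0.31, BUB1B at 0.24, STMN1 at 0.13 and HMGB2 at 0.08 were no longer called. Members below 0, also named after their values were seen, included CENPF at -0.16, MCM5 at -0.12, MCM2 at -0.09 and CCNB2 at -0.05. CCNB2 was at 0.08 without J980. MKI67 was at 0.10 and BUB1 at 0.01. Array error called none of these, with or without J980.

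The middle follicles show how loosely these genes tracked the metallothioneins. CCNB1 was 0.71 and 0.84 in C22 and H893, above all MT-high follicles except 31, and -0.72 and -0.61 in 26 and C26. The mean of the list had an r of 0.450 with the metallothioneins over the 16 follicles.

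Granulosa cell genes had a median difference of 0.138, and of 0.0736 without J980. Of 22, 17 were measured, 15 (88.2%) were above 0 beside 52.5% of all genes. Array error called 6 higher, beside 1.94% of all genes, and 2 without J980, AMH and FST, beside 1.31%. AMH, a hormone of small growing follicles, had levels of 0.36, 0.92, 0.37, -0.39 and 0.32 in the MT-high and -0.55, -0.01, 0.16, -0.58 and -0.55 in the MT-low follicles. Its difference was 0.62 (SE 0.26; limma adjusted p = 0.9995), and 0.72 without J980, and the groups overlapped through follicle 27.

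FST, the activin-binding protein follistatin, had 1.11, 0.44, 0.26, 0.30 and -0.06 against 0.05, -2.05, 0.21, 0.35 and -0.45. Its difference of 0.79 was 0.37 without J980. INHBA, the subunit shared by activin A and inhibin A, had 1.04, 0.52, 0.17, 0.10 and -0.12 against -0.30, -2.69, 0.80, 0.47 and -0.06. Its difference of 0.70 was 0.12 without J980, and array error no longer called it. INHA, the inhibin alpha subunit, differed by 0.38 and by 0.24 without J980. GJA1, a gap junction gene, and SERPINE2, a protease inhibitor, differed by 0.43 and 0.28, and by 0.25 and 0.17 without J980. INHA, GJA1 and SERPINE2 were no longer called then. FSHR, the receptor of follicle-stimulating hormone, differed by -0.13 with a 95% interval of -0.39 to 0.12.

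Genes of steroid synthesis did not pass the test either. CYP19A1, the aromatase that makes oestradiol, differed by -0.06 with a 95% interval of -0.19 to 0.07. CYP11A1, which starts steroid synthesis from cholesterol, had levels from -0.36 to 0.45 in MT-high and from -1.06 to 0.95 in MT-low follicles. Its difference was -0.03 (95% interval -0.62 to 0.55), and -0.32 without J980. HSD3B1, another enzyme of steroid synthesis, differed by -0.08, and by -0.27 without J980, where array error called it lower (limma adjusted p = 0.0492). Of 18 theca and steroid synthesis genes, 11 were measured, with a median of -0.122, and -0.163 without J980. Array error called 2 lower, and 2 without J980 with 1 in common, beside 0.897% and 1.17% of all genes. They were SCARB1 at -0.46 and FDX1, which passes electrons to steroid enzymes, at -0.24. Without J980, FDX1 had a limma adjusted p of 0.0927 and HSD3B1 took its place.

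SCARB1, the receptor through which cells take up cholesterol from HDL, had levels of -0.29, -0.56, -0.49, 0.07 and -0.22 in the MT-high and 0.16, 0.36, 0.11, 0.15 and 0.04 in the MT-low follicles. Only follicle 27 reached into the MT-low range. The difference was -0.46 (SE 0.121, 95% interval -0.72 to -0.21; limma adjusted p = 0.9995), and -0.39 without J980. It had 4 features with a median r of 0.517 and a lowest of -0.177.

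Genes of cholesterol synthesis and transport also had a median below 0. Of 32, 21 were measured, with a median of -0.105 and 5 above 0, and -0.075 without J980. Array error called 6 lower and 0 higher, beside 0.897% and 1.94% of all genes. Without J980 it called 4 and 0, beside 1.17% and 1.31%. The 6 were NPC2 and the synthesis enzymes TM7SF2 at -0.62, IDI1 at -0.39, FDFT1 at -0.36, SQLE at -0.35 and MVD at -0.29. The 2 features of TM7SF2 disagreed, with an r of -0.109. NPC2 and MVD were no longer called without J980. SQLE was at -0.58 and IDI1 at -0.56 without J980, further from 0. The list mean ran from -0.184 to 0.100 in MT-high and from -0.0421 to 0.138 in MT-low follicles, so the groups overlapped.

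Mitochondrial respiratory genes showed small differences, most of them above 0. Of 77 genes of oxidative phosphorylation, 66 were measured and 49 (74.2%) were above 0 beside 52.5% of all genes, with a median of 0.0694 (0.0726 without J980). Array error called 10 higher and 0 lower, beside 1.94% and 0.897% of all genes. Without J980 it called 8 and 1, beside 1.31% and 1.17%, with 6 in common. NDUFB2, a complex I subunit, had 0.46, 0.05, 0.12, 0.12 and -0.04 against -0.02, -0.67, -0.04, -0.03 and -0.29, a difference of 0.35 that was 0.21 and no longer called without J980. NDUFC1 differed by 0.37, COX7A2 by 0.32, UQCR11 by 0.32, CYC1 by 0.30, COX7B by 0.28, ATP5F1B by 0.27, ATP5MC3 by 0.26, COX7C by 0.26 and NDUFA2 by 0.25. Without J980, NDUFA2 at 0.09, COX7B at 0.17 and ATP5MC3 at 0.19 were no longer called either. UQCRFS1 and COX5B, both at 0.23, were then called higher and UQCRH lower, at -0.31. Members below 0, named after their values were seen, included ATP5PB at -0.32 (-0.39 without J980) and COX7A2L at -0.22 (-0.16 without J980). Neither was called by array error, with or without J980. The list mean had an r of 0.518 with the metallothioneins.

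Chaperone and endoplasmic reticulum stress genes had a median of 0.0901 over 35 of 46 measured, and of 0.0139 without J980. Array error called 5 higher, beside 1.94% of all genes, and 3 of these without J980, beside 1.31%. HSPA8, a constitutive HSP70, had 0.27, 0.45, -0.06, 0.15 and -0.02 against -0.25, -0.54, -0.48, 0.01 and 0.03, a difference of 0.41, or 0.33 without J980, where it was no longer called. Its 3 features agreed little, with a median r of 0.151 and a lowest of -0.111. CRYAB and SERPINH1, with differences of 0.63 and 0.45, were high in 1 MT-high follicle each. CRYAB, a small heat shock protein, was 1.92 in follicle 46 and at most 0.45 in the other MT-high follicles, and SERPINH1, a collagen chaperone, was 1.46 in follicle 31 and at most 0.27 in the others. CCT2 and DDIT3 differed by 0.30 and 0.24, and DDIT3, at 0.13 without J980, was not called then.

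A few interferon-induced genes varied widely within both groups: 6 of 21 measured had an SE of the difference above 0.3, while the median SE of the list was 0.151. MX1, an antiviral GTPase, had levels of 1.24, -1.34, -0.75, -1.24 and 0.07 in the MT-high and 1.80, 3.03, -0.998, 1.54 and -0.95 in the MT-low follicles. ISG15, a ubiquitin-like protein, had 2.09, -1.41, -1.13, -1.09 and -0.14 against 1.58, 3.11, -1.22, 1.33 and -0.97. Both groups held high and low follicles. The differences were -1.29 for MX1 (SE 0.755) and -1.10 for ISG15 (SE 0.791), with limma adjusted p = 0.9995, and -0.76 and -0.49 without J980. Array error gave MX1 a limma adjusted p of 7.0e-07, the smallest of all genes. IFI6 at -0.83 and OAS1Z at -0.51 were called lower by array error as well, and TAP1, a peptide transporter of antigen presentation, was called higher at 0.27. Without J980, IFI6 was at -0.59 and OAS1Z at -0.32, both still called, and TAP1 at 0.21 was not. The list had 4 lower calls both times, beside 0.897% and 1.17% of all genes. Of 39 genes, 21 were measured, with a median of -0.0796.

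Markers of other cell types of the follicle wall were compared because the cell mixture may vary between follicles. Of 44 leukocyte genes, 38 were measured, with a median of -0.0409. Array error called 1 higher and 1 lower, beside 1.94% and 0.897% of all genes. CXCR4, a chemokine receptor, differed by -0.85, with 2.06 in J980, and by -0.51 without it (limma adjusted p = 0.0507 by array error). SRGN, a granule proteoglycan, differed by 0.71, with -1.10 in J980 and -1.16 in C10, and by 0.50 without J980. The B cell receptor gene CD79A at 0.61 and LAPTM5 at -0.27 were called only without J980, where 1.31% of all genes were called higher and 1.17% lower. Endothelial genes (13 of 19 measured), smooth muscle and stroma genes (17 of 22) and erythrocyte genes (7 of 13) had medians of -0.0105, -0.0111 and -0.0012, with 0 called by array error. The summed lists overlapped: the endothelial mean ran from -0.209 to 0.178 in MT-high and from -0.193 to 0.207 in MT-low follicles. Their members of smallest p were VWF at -0.09, MYH11 at 0.40 (0.07 without J980) and BLVRB at -0.11. The part of cell mixture in any difference above was not tested.

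The other lists held few calls by array error, which called 1.94% of all genes higher and 0.897% lower (1.31% and 1.17% without J980). Extracellular matrix genes (40 of 50 measured) had a median of -0.0508, with FMOD at -0.36 and FBLN1 at -0.31 called lower by array error (0.897% of all genes were) and PRELP, the member of smallest p, at -0.22. Without J980, FMOD was no longer called, FBLN1 was at -0.40, and ASPN at -0.33 and CCN1 at -0.39 were called lower. Acute phase and complement genes (19 of 33) had a median of -0.0419, with A2M at -0.27 and C1S at -0.43 called lower, of which A2M was not called without J980 (limma adjusted p = 0.0572). C1R was at -0.18, and C7, named after its values were seen, at -0.43. Ribosomal protein genes (63 of 81) had a median of 0.0134, with RPL31 at -0.24 called and RPS27L, the member of smallest p, at 0.36. Without J980, RPL31 was at -0.12 and not called, RPS27L was at 0.24, and RPL14 at -0.23 was called. Apoptosis and atresia genes (23 of 36) had a median of -0.0397, with 0 called by array error and CASP8 at -0.11, and GADD45A was called lower only without J980, at -0.23 (limma adjusted p = 0.0488).

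The same shares of all genes apply to the next lists, 1.94% higher and 0.897% lower, or 1.31% and 1.17% without J980. In the insulin-like growth factor list (12 of 16 measured), IGFBP3, which binds these growth factors, was called by array error at -0.41, with its lowest level in follicle 861. Without J980 it was at -0.32 and still called, and the insulin receptor gene INSR at -0.45 and IGFBP6 at -0.33 were called lower as well. In the TGF-beta and BMP list (16 of 31) BMP7 was called at 0.41, or 0.11 without J980, and ID1, a target of BMP signalling, had a difference of 0.16. In the luteal and ovulation list (9 of 25) CITED2 was called at -0.44 and, at -0.34 without J980, was no longer called. In the immediate early list (22 of 26) DUSP6, a phosphatase that restrains ERK, was called at -0.26, and at -0.29 without J980, where CCN1 was also called.

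**Figure D5:**
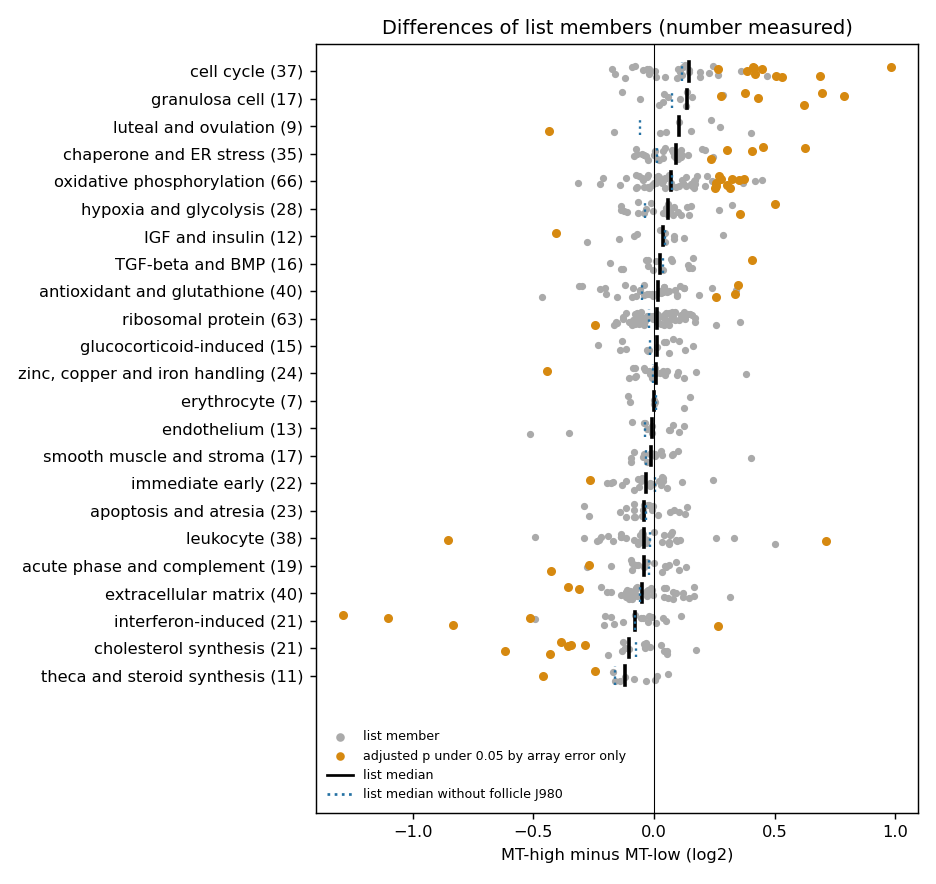
Difference between MT-high and MT-low follicles (log2) of each measured member of 23 gene lists, with the list's number of measured genes in brackets, the list median as a black bar and the median without J980 as a dotted blue bar. Medians run from -0.122 for theca and steroid synthesis to 0.144 for cell cycle genes, and orange points are members called by array error.

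Some genes of large difference by array error lay outside every list and were named after their values were seen. PTGDS, a prostaglandin D synthase, had -0.52, -0.55, -0.76, -0.32 and 0.62 against 0.74, 0.78, -0.47, 0.46 and 0.49, a difference of -0.70 (SE 0.298). C32 among the MT-high and C12 among the MT-low went the other way. TMEM100, an endothelial membrane protein, differed by -0.64, with 0.61 in C32 and -0.38 in C12. FAM114A1 and CRACDL differed by -0.72 and -0.61, and FAM114A1 was not called without J980 (limma adjusted p = 0.126). RGP1, a subunit of a Golgi exchange factor, differed by -0.80, with levels from -1.12 to 0.49 in the MT-high follicles. On the higher side, SEMA4F, a semaphorin, differed by 0.84, and by 0.55 without J980. TNFRSF12A, the receptor of TWEAK, and FSTL3, an activin-binding protein, differed by 0.68 each, and the MT-high levels of FSTL3 ran from -0.83 in 861 to 0.94 in 46.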

How the data were processed

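The log2 ratios are those the authors deposited; the labels' protocols name a GenePix Pro 4.0.1.12 image analysis, and no source used here gives the background correction, normalization, log base or ratio direction. Gene symbols came from the platform's annotation (13605 of 17418 had 1 symbol). After median-centring of arrays and averaging of features by symbol, genes with values on at least 20 arrays received follicle effects (1 for Cy5, -1 for Cy3) and a dye term. Levels of high, middle and low follicles were compared with limma (version 3.58.1, under R 4.3.3; 13 residual degrees of freedom; Benjamini-Hochberg at 0.05), checked on simulated data. A second limma test used array error only. Its SEs hold no spread between animals. The number of arrays limits the precision; signal over background is unknown. Metallothioneins were left out. The groups and the 23 lists were chosen with earlier results of these data known. Named genes were the 12 of smallest p without overlap in each direction (since none passed), the member of smallest p in each list, and 13 fixed genes, of which SLC30A1 and COL1A1 had no level here. Members called by array error were named after their values were seen. Unused per-sample columns numbered 0. Figures used matplotlib 3.10.9.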

Additional observations from a re-analysis of the deposited data

Results flagged for a closer look

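In 8 of 160 groups of 5 follicles examined, 1 follicle stood apart from the other 4 by Dixon's criterion, about the 1 in 20 that chance gives. J980 did so among the MT-low follicles in 3 genes, with -0.56 for NPHP4, 0.29 for SLC5A6 and -0.97 for PKM. Among the MT-high follicles, 861 had 0.65 for GNB2 and 2.43 for IFI6, C32 had 0.23 for SLC40A1, and 27 had 0.60 for MYH11. C12 had -0.47 for PTGDS among the MT-low.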

How the results depend on the processing

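The count of genes past the adjusted threshold was 0 in each direction in all 50 settings of the limma test between follicles that were run, leaving out any 1 follicle or array among them (0 to 0 over 34 leave-outs). Unadjusted counts ran from 97 to 310 higher and 54 to 200 lower. Array error in place of the spread between follicles gave 175 higher and 81 lower, and counting genes without overlap gave 28 and 21. The array-error counts themselves ran from 52 to 260 higher and 21 to 111 lower over 34 leave-outs, and 115 genes were higher with arrays scaled to one median absolute deviation. They were lowest without the array of C10 and 26 (52 and 22), C26 and 33 (53 and 22) or 861 and C10 (55 and 21). Either count moved by over 1.5 times without the level of 46 (132 and 50), 31 (65 and 30), C10 (77 and 44) or J980 (67 and 71). It also did without the arrays of C12 and H893 (115 and 59), C35 and 27 (98 and 45), C32 and C26 (67 and 32), 8 and C32 (109 and 55), 33 and C13 (81 and 51), C12 and 46 (95 and 55) or 31 and C10 (67 and 33). Of 1313 gene differences under alternatives, 10 changed sign, in CYP11A1 and HSD3B1, both near 0. This low count was partly set in advance. Ranking by MT1A or MT2A alone kept the same groups, and settings that changed only the variance estimate left each difference as it was. In genes chosen for no overlap, neither 4 against 4 follicles nor leaving out a follicle can turn the sign. For CYP11A1, the difference was 0.0343 with 4 against 4 follicles, 0.0427 with 6 against 6 and 0.0263 with the identifier letter as covariate, and it ran from -0.305 to 0.197 without single follicles. For HSD3B1 it was 0.00841 with that covariate and ran from -0.246 to 0.00842 without single follicles. The cause was not tested. Replicate numbers only name arrays of 1 follicle and pair nothing, so they gave no paired analysis. The arrays themselves pair follicles, and that pairing entered the fit of the levels.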

Other observations

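Tested by feature in place of gene, 0 of 16355 features passed the limma test, and 588 had an unadjusted p under 0.05. The smallest limma adjusted p was 0.321, for the feature without a gene symbol whose levels followed the metallothioneins, with a difference of 0.55 (SE 0.0912).

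Feature identifiers hold 3 numbers. Of the 30 other features that share the last 2 with the MT1A feature, 4 (13.3%) had an r above 0.5 with the metallothioneins, beside 2.29% of all features. These were PNPLA6 at 0.811, ADCK1 at 0.763, VWCE at 0.679 and SLC6A18 at 0.586. The same count was 2 of 31 for MT2A and 1 of 29 for MT3. No source used here gives what the numbers stand for.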
